A study of Danio rerio with 18 samples.

Results

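Adult zebrafish ventricles whose cardiomyocytes were made to express the oncogene HRAS were compared with ventricles of a line that expressed a red fluorescent protein in the same way, both under the vehicle DMSO. The comparison held 6 of the 15 libraries in the count tables of the series, 3 of GFP-HRAS DMSO and 3 of RFP DMSO, chosen by the strain and treatment in their labels. Both groups carried a cmlc2-driven Gal4-ERT2, a transcription factor that 4-hydroxytamoxifen (4-OHT) activates and that the cmlc2 promoter directs to cardiomyocytes. One line joined it to UAS:RFP and the other to UAS:GFP-HRAS. Over 16 days both groups were given 4 overnight pulses of 2.5 uM 4-OHT with 0.05% DMSO, and the ventricles were uninjured. The labels name no amino acid change in HRAS, no age beyond adult and no pools or separate animals, so every p-value here measures the spread between these libraries, which may be technical. The other groups of the fit received the same pulses with rapamycin, which blocks TOR kinase, at 0.5 uM. The remaining libraries came from hearts 7 days after a cryoinjury and were not used.

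Ras proteins are small GTPases that carry signals from receptor tyrosine kinases to the kinases RAF, MEK and ERK and to PI3-kinase and AKT. ERK switches on immediate-early transcription factors and its own phosphatases, while AKT holds FOXO transcription factors out of the nucleus. In the adult zebrafish heart, ERK and PI3-kinase signalling downstream of growth factors is part of how cardiomyocytes divide again during regeneration.

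The 6 libraries held 17028148 to 18945526 counts each, and the same tissue markers were present throughout. A set of 7 cardiomyocyte genes (MYL7, cmlc1, actc1a and genes of TNNT2 and TTN), not specific to the ventricle, was summed. It gave 38151 to 41852 CPM (counts scaled to a common library size with TMM factors) in RFP and 18093 to 23724 CPM in GFP-HRAS. GFP-HRAS libraries detected 21265 to 21773 genes and RFP libraries 19903 to 20015. Mitochondrially encoded genes took 13.1% to 21.8% of counts in RFP and 10.1% to 16.0% in GFP-HRAS, with replicate 1 the highest of each group. GFP-HRAS replicate 1 stood apart from its group on the first principal component over the 12 transgenic libraries (59.8, against 79.4 and 77.2, with RFP DMSO at -54.8 to -43.8). Without it, 7312 genes were called, against 7621 with it.

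Of 32520 genes in the table, 16044 passed the expression filter and 7621 of them (47.5%) differed between the groups at an adjusted p under 0.05 in edgeR's quasi-likelihood test. In GFP-HRAS, 3991 genes (24.9%) were higher and 3630 (22.6%) lower, and 5596 (34.9%) differed by at least 2-fold. At 8-fold or more the split was 1054 higher and 267 lower, as the plot of change against level shows. Scaling by library totals instead of TMM moved the median of all genes by 0.462 on the log2 scale, and the split became 6084 higher (37.9%) and 1812 lower (11.3%). Changes below are therefore relative to the TMM scale, on which the median of all genes was 0.02. A gene is said to rise or fall only where it passed this test, and one that did not pass is not shown to be alike in the groups. The filter could keep a gene that was near 0 in RFP through other groups alone, and such a gene could not be called lower. Values given in threes are CPM of replicates 1, 2 and 3. Where a symbol is shared by paralogues, the identifier is given.

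**Figure D1:**
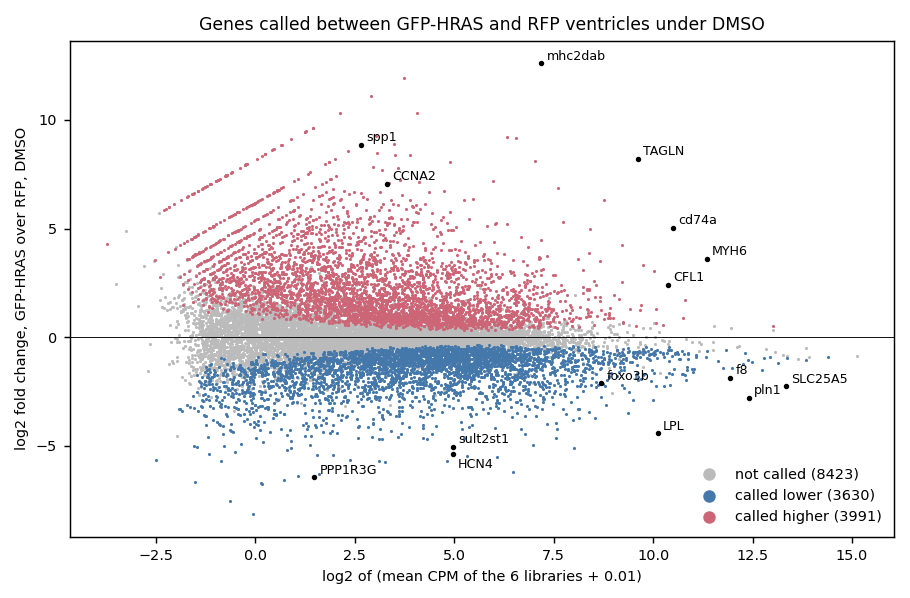
Log2 fold change (GFP-HRAS minus RFP, both DMSO) of 16044 genes against their mean level over the 6 libraries in log2 CPM, with the 3991 genes called higher and the 3630 called lower in colour and the others in grey. The largest changes lie on the higher side, where 1054 called genes changed by at least 8-fold against 267 on the lower side.

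The annotated hras genes moved in opposite directions. HRAS ENSDARG00000098497 measured 1.56, 1.34 and 1.97 CPM in RFP and 6.19, 8.31 and 7.72 CPM in GFP-HRAS, a rise of 2.18 ± 0.38 on the log2 scale (SE, adjusted p = 0.00123). HRAS ENSDARG00000005651 fell from 15.1, 17.4 and 20.3 CPM to 8.7, 3.81 and 5.34 CPM (log2 fold change -1.57 ± 0.3, adjusted p = 0.00196). Neither gene's groups overlapped, as in 62.3% of all genes tested, where GFP-HRAS lay wholly above RFP in 32.0% and wholly below it in 30.4%. The transgene itself has no row among the counted genes, and whether its reads were counted in either hras gene was not tested.

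Of 21 genes of the Ras-ERK cascade, the kinases and exchange factors between receptors and ERK, 6 rose and 6 fell. These shares, 28.6% each, lie near those of all genes (24.9% higher and 22.6% lower). The median log2 fold change of the cascade was 0.27 (0.73 with library totals, with 9 higher and 4 lower). SOS1, the exchange factor that loads Ras with GTP, fell from 136, 218 and 170 CPM to 77.6, 69.3 and 65.2 CPM (log2 fold change -1.30 ± 0.264, adjusted p = 0.00264). BRAF, the RAF kinase directly downstream of Ras, fell from 52.3 ± 8.02 to 19.5 ± 2.48 CPM (SD, n = 3; -1.42 ± 0.324, adjusted p = 0.00473). MAPK3, which encodes ERK1, had 92.4 ± 4.96 CPM in RFP and 123 ± 11.7 CPM in GFP-HRAS and did not pass (0.42 ± 0.162, adjusted p = 0.0528), although it did with library totals (0.00435).

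Among inhibitors of the same pathway, 6 of 18 genes rose and 4 fell, with a median of 0.31. Their shares were 33.3% and 22.2%, beside 24.9% and 22.6% of all genes. With library totals 11 rose and 1 fell. DUSP2, a nuclear phosphatase of ERK, stood at 1.37, 2.86 and 1.48 CPM in RFP and at 43.2, 19.4 and 15.4 CPM in GFP-HRAS (log2 fold change 3.77 ± 0.948, adjusted p = 0.00772). ERRFI1, an inhibitor of the EGF receptor, moved the other way, from 237, 312 and 262 CPM to 90.1, 76.0 and 108 CPM (-1.56 ± 0.283, adjusted p = 0.00148). SPRY2 also fell (-0.99 ± 0.217, adjusted p = 0.00384), a call lost with library totals (0.0801). DUSP6 overlapped between groups and did not pass (1.49 ± 0.7, adjusted p = 0.1), although it did with library totals (0.0435). SPRY4, a Sprouty inhibitor of Ras signalling, measured 71.6, 149 and 101 CPM against 166, 241 and 270 CPM. Its groups did not overlap, but RFP replicates were widely spread and it did not pass (1.07 ± 0.623, adjusted p = 0.174).

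Among transcription factors that ERK induces, the early growth response genes egr1 and EGR2 rose. In the list of AP-1, ETS and MYC factors 9 of 25 genes rose, 2 fell and 14 were not called (median 0.67). The shares were 36.0% higher and 8.0% lower, beside 24.9% and 22.6% of all genes. Without RFP replicate 3 the number that rose was 5. The zinc finger factor egr1 went from 9.62, 2.01 and 3.56 CPM to 68.1, 53.3 and 44.4 CPM (log2 fold change 3.45 ± 0.88, adjusted p = 0.00821), and EGR2 from 0.195, 0.0608 and 0.274 CPM to 6.42, 3.93 and 3.38 CPM (4.63 ± 0.618, adjusted p = 0.000397). All GFP-HRAS values of both genes lay above all RFP values. ETV4, an ETS factor of FGF signalling, rose from 0.221 ± 0.0734 to 2.16 ± 0.394 CPM (3.25 ± 0.677, adjusted p = 0.00305). The ETS genes etv5a and etv5b did not pass (0.36 ± 0.621 and 0.43 ± 0.517, adjusted p = 0.652 and 0.51). Neither did FOS and FOSL2 (1.43 ± 1.1 and 0.3 ± 0.656, adjusted p = 0.298 and 0.726). JUN and JUNB (ENSDARG00000074378), subunits of AP-1, were less clear. JUN overlapped between groups (0.27 ± 0.359, adjusted p = 0.553). JUNB passed with all libraries (2.0 ± 0.684, adjusted p = 0.0319) but had an adjusted p up to 0.11 when 1 library was left out. Other AP-1 genes rose: FOSL1 (3.14 ± 1.01, adjusted p = 0.0246), JUND (1.1 ± 0.398, 0.04) and JUNB ENSDARG00000104773 (2.06 ± 0.659, 0.0239). With 1 library left out their adjusted p reached 0.0829, 0.121 and 0.0866. The gene fosaa rose from 0.0385 ± 0.0335 to 0.644 ± 0.137 CPM (3.81 ± 0.936, adjusted p = 0.00688). The MYC family member MYCN fell, from 18.5, 19.3 and 22.1 CPM to 3.10, 6.30 and 3.70 CPM (-2.19 ± 0.408, adjusted p = 0.00169).

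Of 28 ligands and receptors upstream of Ras 9 rose and 7 fell, with a median of 0.30 (5 rose without RFP replicate 3). Their shares, 32.1% and 25.0%, lay near those of all genes (24.9% and 22.6%). With library totals 12 rose and 3 fell (median 0.77). The EGF receptor ligand hbegfa rose from 13.2 ± 4.1 to 39.6 ± 13.2 CPM (1.59 ± 0.405, adjusted p = 0.00819) while PDGFA (ENSDARG00000098578), a platelet-derived growth factor, rose from 0.145 ± 0.105 to 2.09 ± 0.398 CPM (3.82 ± 0.897, adjusted p = 0.00548). Its receptor PDGFRA, a fibroblast marker, fell from 52.3, 47.1 and 55.9 CPM to 6.42, 10.7 and 11.6 CPM (-2.44 ± 0.366, adjusted p = 0.000624). GAS6, the ligand of the receptor kinase AXL, fell from 194 ± 53.1 to 68.6 ± 7.31 CPM (-1.50 ± 0.257, adjusted p = 0.00111), whereas AXL rose from 5.93 ± 0.675 to 45.6 ± 10.5 CPM (2.94 ± 0.529, adjusted p = 0.00142). Neuregulin NRG1 and the receptor gene ERBB2, of signalling that drives cardiomyocyte division in zebrafish, did not pass (0.45 ± 0.518, adjusted p = 0.499, and -1.06 ± 0.607, adjusted p = 0.169). Both were low, at 0.713 and 2.55 CPM in RFP and 0.969 and 1.22 CPM in GFP-HRAS. The related EGFR (-1.21 ± 0.23, adjusted p = 0.00193) and ERBB4 ENSDARG00000090408 (-1.15 ± 0.268, 0.00529, and 0.0697 with library totals) fell. ERBB4 ENSDARG00000089536 did not pass (0.51 ± 0.305, 0.187). The vascular growth factor VEGFA (ENSDARG00000034700) overlapped between the groups, with 123 ± 9.79 and 109 ± 13.4 CPM.

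In the PI3-kinase and AKT branch more genes fell than rose, 10 of 24 against 4 (median -0.56), a direction that turned with library totals, where 5 fell and 6 rose (median -0.10). On the TMM scale the shares were 41.7% lower and 16.7% higher, beside 22.6% and 24.9% of all genes. The number that fell was 5 without RFP replicate 2 and 6 without GFP-HRAS replicate 2. The insulin receptor substrate IRS2 (ENSDARG00000075282), which couples insulin receptors to PI3-kinase, fell from 253, 693 and 466 CPM to 106, 48.1 and 58.1 CPM (log2 fold change -2.73 ± 0.671, adjusted p = 0.00682). Its paralogue IRS2 ENSDARG00000037099 fell from 81.6, 123 and 147 CPM to 22.6, 12.6 and 8.52 CPM (-3.01 ± 0.667, adjusted p = 0.00415). Genes for FOXO factors fell as well: foxo3b went from 473, 882 and 649 CPM to 172, 145 and 144 CPM (-2.12 ± 0.521, adjusted p = 0.00688). For FOXO1 ENSDARG00000099555, named after its values were seen, the change was from 173, 314 and 180 CPM to 39.8, 22.7 and 27.3 CPM (-2.89 ± 0.523, adjusted p = 0.00147). No GFP-HRAS library of these 4 genes reached the lowest RFP library. Falls of foxo3a (-2.31 ± 0.839, adjusted p = 0.0408) and FOXO1 ENSDARG00000061549 (-1.48 ± 0.499, 0.0302), also named after their values were seen, were less firm. With 1 library left out their adjusted p reached 0.128 and 0.132.

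Some genes of other lists that are tied to FOXO or TOR in other vertebrates are given here singly, and no list of such genes was tested. The ubiquitin ligase FBXO32, atrogin-1 of muscle atrophy, which was chosen after its values were seen, fell from 109, 290 and 203 CPM to 31.8, 7.61 and 9.76 CPM (-3.61 ± 0.957, adjusted p = 0.00992), and the atrophy ligase trim63a from 4.33 ± 2.61 to 0.263 ± 0.246 CPM (-4.04 ± 0.737, adjusted p = 0.00155). SESN1, a stress-induced brake on TOR, fell from 653, 1417 and 1745 CPM to 292, 113 and 105 CPM (-2.90 ± 0.681, adjusted p = 0.00543). The translation repressor eif4ebp3 fell from 47.7, 122 and 77.7 CPM to 8.83, 3.32 and 3.11 CPM (-4.02 ± 0.775, adjusted p = 0.00201). In FBXO32, trim63a, SESN1 and eif4ebp3 RFP replicate 1 was the lowest of its group and GFP-HRAS replicate 1 the highest of its own. The groups of each gene stayed apart. Not all genes with such ties fell: the cell cycle inhibitor cdkn1a, also chosen after its values were seen, rose (2.51 ± 0.243, adjusted p = 0.000131). TXNIP did not pass (0.01 ± 0.352, adjusted p = 0.978). PIK3CD, the catalytic PI3-kinase subunit of leukocytes, rose from 1.69, 1.88 and 1.86 CPM to 24.1, 13.7 and 9.36 CPM (3.11 ± 0.338, adjusted p = 0.000203), beside the rise in leukocyte genes given below.

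**Figure D2:**
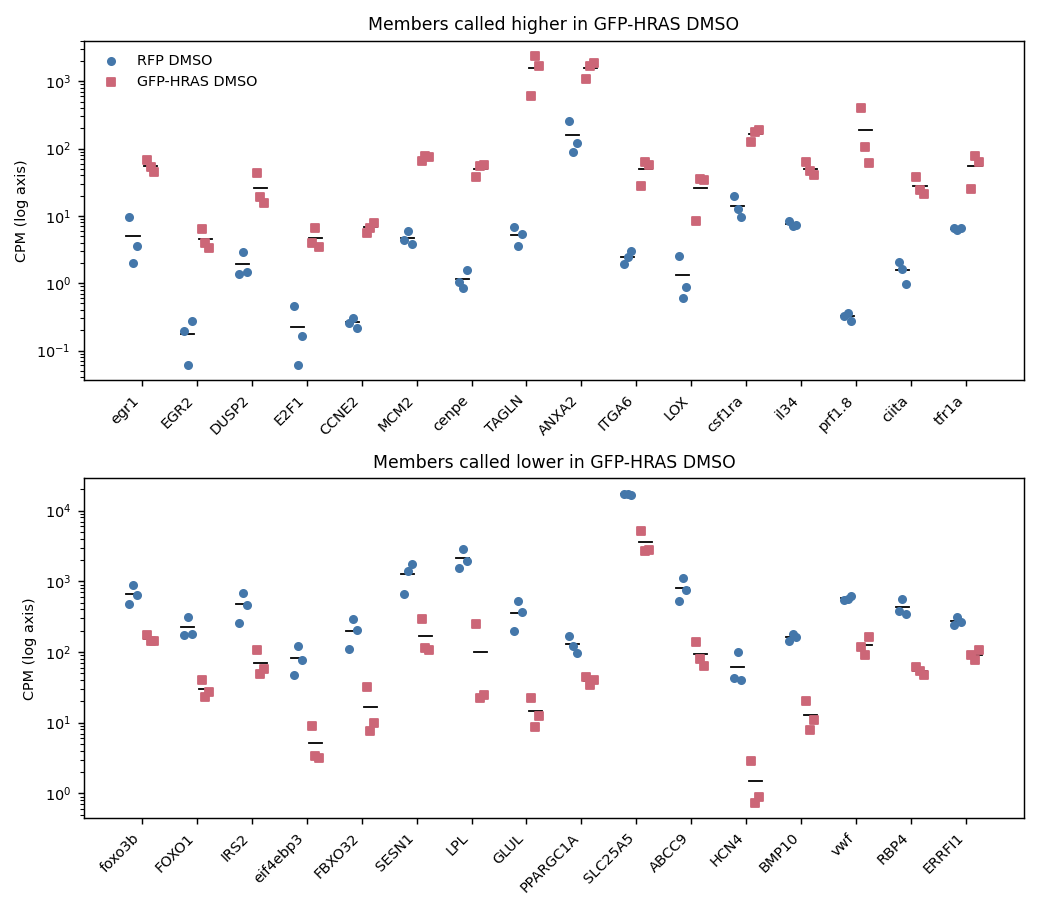
CPM (log axis) of 16 genes that rose and 16 that fell, 1 point per library for the 3 RFP and 3 GFP-HRAS libraries, with bars at the group means. Each gene's groups are separate, and the GFP-HRAS points of foxo3b (144 to 172 CPM) lie below its lowest RFP point (473 CPM).

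More genes of the G1 to S transition and of DNA replication rose than fell. Of 23 genes of the G1 to S transition 14 rose and 2 fell (median 1.58), and of 36 replication genes 26 rose and 0 fell (median 1.68; edgeR, with 14 in the rapamycin pair described below). The shares that rose were 60.9% and 72.2%, beside 24.9% of all genes, and those that fell 8.7% and 0%, beside 22.6%. E2F1, which switches on S-phase genes, rose from 0.455, 0.0608 and 0.164 CPM to 3.92, 6.55 and 3.50 CPM (log2 fold change 4.35 ± 0.859, adjusted p = 0.00231), and the cyclin CCNE2 from 0.260, 0.304 and 0.219 CPM to 5.65, 6.71 and 7.96 CPM (4.67 ± 0.743, adjusted p = 0.000806). CCND1, a D cyclin that Ras induces in many cells, did not pass (38.4 ± 7.49 and 37.7 ± 6.32 CPM, -0.02 ± 0.181, adjusted p = 0.922), while CCND2 (ENSDARG00000070408) rose from 2.2 ± 0.907 to 19.9 ± 5.83 CPM (3.17 ± 0.642, adjusted p = 0.00262). MCM2, a subunit of the replicative helicase, went from 4.42, 6.02 and 3.78 CPM to 66.2, 76.6 and 74.4 CPM (3.93 ± 0.518, adjusted p = 0.000387). Inhibitors of the cell cycle went both ways. CDKN1B (ENSDARG00000054271) fell from 50.0 ± 17.2 to 16.5 ± 3.26 CPM (-1.61 ± 0.431, adjusted p = 0.0107). The inhibitor cdkn1a rose from 4.88, 5.72 and 4.99 CPM to 28.1, 30.4 and 30.5 CPM (2.51 ± 0.243, adjusted p = 0.000131).

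Of the 41 gene lists examined, kinetochore genes had the highest share called higher (95.7%, beside 24.9% of all genes). All but 1 of 23 rose (median 3.70), and the exception, ska2, fell by 0.57 on the log2 scale (adjusted p = 0.00857), a call lost with library totals (0.637). The kinetochore motor cenpe went from 1.04, 0.851 and 1.59 CPM to 37.5, 54.7 and 56.3 CPM (5.40 ± 0.519, adjusted p = 0.000131). Transcripts of spc24, a subunit that binds microtubules, were nearly absent in RFP, at 0.065, 0 and 0.110 CPM, and measured 5.01, 7.20 and 8.16 CPM in GFP-HRAS, a ratio of 114.5 with a 95% counting interval of 38.96 to 557.2.

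Chromatin genes also rose. In the list of condensin, cohesin and chromatin maintenance 24 of 31 rose and 1 fell (median 2.05). The shares were 77.4% higher and 3.23% lower, beside 24.9% and 22.6% of all genes. The condensin subunit SMC4 rose by 5.25 on the log2 scale, and the maintenance methyltransferase DNMT1 and its partner UHRF1 rose from 13.9 ± 1.88 to 56.8 ± 11.1 CPM and from 4.67 ± 0.725 to 45.7 ± 6.62 CPM. The chromatin protein hmga1a, already present in RFP at 138, 104 and 107 CPM, reached 404, 499 and 542 CPM (2.05 ± 0.261, adjusted p = 0.00035). The cohesin subunit STAG1 was the gene that fell (-1.25 ± 0.262, adjusted p = 0.00314).

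Markers of several cell types moved beside these cell cycle and chromatin genes. Smooth muscle and pericyte markers were higher for 6 of 7 genes, fibroblast markers for 5 of 7 and macrophage markers for 2 of 4 tested. Over all genes 24.9% were called higher and 22.6% lower. Cardiomyocyte markers were lower for 6 of 7 on the TMM scale. The summed NK-like markers were 0.383 to 0.425 CPM in RFP and 65.9 to 438 CPM in GFP-HRAS. The part of these markers in the rise was not tested, and the cell types that held the cell cycle transcripts cannot be told apart in bulk libraries.

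Genes that supply and repair DNA rose in part. The shares that rose were 54.2% of repair, 47.8% of nucleotide and 36.8% of one-carbon, serine and proline genes, beside 24.9% of all genes. Of 24 repair genes 13 rose and 0 fell (median 0.94), of 23 nucleotide synthesis genes 11 rose and 2 fell (median 0.34; 1 fell without RFP replicate 2 or 3 or any GFP-HRAS replicate), and of 19 genes of one-carbon, serine and proline synthesis 7 rose and 2 fell (median 0.68). The checkpoint kinase CHEK1 had a ratio of 91.43 (counting interval 31.06 to 445.3) at 3.73, 5.08 and 7.41 CPM. PHGDH, the first enzyme of serine synthesis, had one of 102.2 (34.73 to 497.3) at 2.0, 7.0 and 8.88 CPM. PSAT1, the next enzyme, rose by 2.27 and MTHFD1L, a mitochondrial folate enzyme, by 3.0 on the log2 scale. The purine enzyme ADSS2 rose from 48.6 ± 8.23 to 85.8 ± 18.8 CPM (0.82 ± 0.289, adjusted p = 0.0361). Other members well expressed in both groups did not pass. The mismatch repair gene MSH6 had 59.9 ± 18.6 and 40.4 ± 5.69 CPM (-0.57 ± 0.286, adjusted p = 0.121). The replication fork protein TIMELESS (44.9 ± 1.79 and 44.8 ± 3.86 CPM), a further purine enzyme, IMPDH2 (73.2 ± 1.37 and 65.0 ± 3.18 CPM) and the methyl-cycle enzyme AHCY (187 ± 82.9 and 207 ± 43.4 CPM) all missed the threshold, with log2 fold changes of 0.00, -0.17 and 0.14. The folate enzyme ALDH1L1 fell from 7.60 ± 1.18 to 2.69 ± 1.11 CPM (-1.50 ± 0.37, adjusted p = 0.00707).

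**Figure D3:**
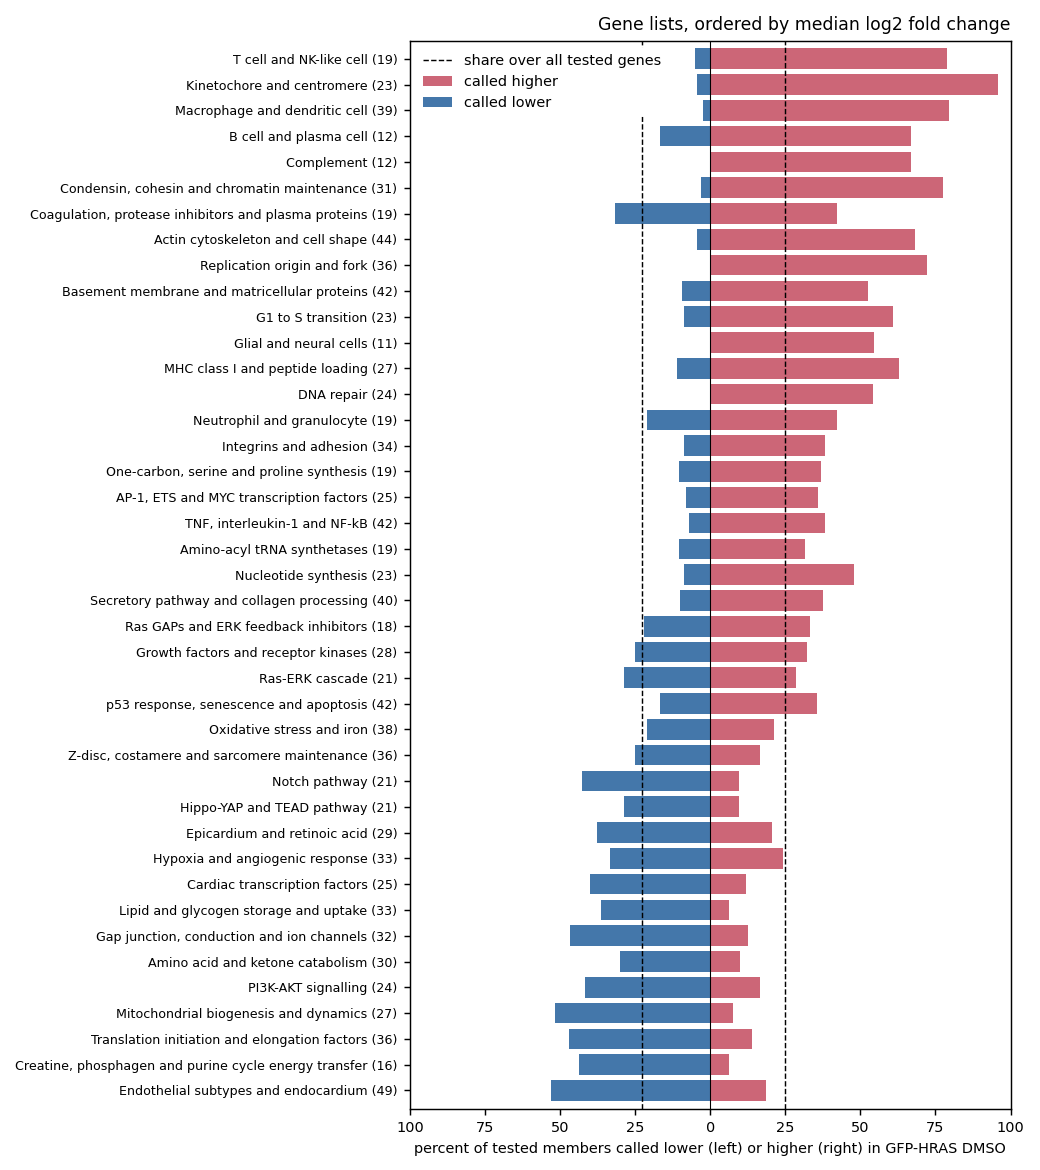
Number of tested members called higher and called lower in each of the 41 gene lists, as a percentage of the members tested, beside the share over all 16044 genes (24.9% higher and 22.6% lower). Kinetochore genes (95.7% higher) and endothelial genes (53.1% lower) lie far from the background on either side.

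More genes of energy transfer and mitochondrial biogenesis fell than rose on the TMM scale. The shares that fell were 43.8% and 51.9%, beside 22.6% of all genes. SLC25A5, the carrier that exchanges ATP and ADP across the mitochondrial membrane, had the largest loss in CPM of any called gene, from 17310, 17130 and 16741 CPM to 5169, 2708 and 2810 CPM (log2 fold change -2.26 ± 0.33, adjusted p = 0.000553). Of 16 genes of creatine and phosphagen energy transfer 7 fell and 1 rose (median -0.79; 5 and 3 with library totals), and the number that fell was 4 without GFP-HRAS replicate 2 or 3. The muscle creatine kinase ckmb fell from 34.8, 16.9 and 20.4 CPM to 1.59, 0.819 and 0.876 CPM (-4.45 ± 0.567, adjusted p = 0.000353). CKB (ENSDARG00000069752), the brain form, was the member that rose, from 23.0, 12.2 and 10.6 CPM to 63.8, 181 and 103 CPM (2.93 ± 0.558, adjusted p = 0.0019). The coactivator PPARGC1A, a driver of mitochondrial biogenesis, fell from 169, 121 and 96.5 CPM to 43.6, 34.6 and 40.0 CPM (-1.71 ± 0.324, adjusted p = 0.00185), and the fatty acid sensor PPARA from 23.7 ± 4.91 to 6.44 ± 1.40 CPM (-1.88 ± 0.279, adjusted p = 0.000591). In their list 14 of 27 genes fell and 2 rose (median -0.58), with 6 lower and 6 higher on library totals. The number that rose was 4 without RFP replicate 1 and 1 without RFP replicate 2 or GFP-HRAS replicate 2 or 3. The chaperonin HSPD1 was the member that rose most, from 63.5 ± 22.3 to 238 ± 58.9 CPM (1.9 ± 0.277, adjusted p = 0.000551).

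Of 30 genes of amino acid and ketone catabolism 9 fell and 3 rose (median -0.52; 5 fell without GFP-HRAS replicate 2). The share that fell, 30.0%, lay near that of all genes (22.6%). The share that rose was below that of all genes (24.9%). With library totals the split was even, 5 lower and 5 higher (median -0.06). The glutaminase GLS2 fell from 91.2, 131 and 139 CPM to 25.3, 6.26 and 8.64 CPM (-3.17 ± 0.569, adjusted p = 0.00141), and the branched-chain transaminase BCAT2 from 160, 236 and 305 CPM to 83.6, 26.7 and 39.5 CPM (-2.23 ± 0.454, adjusted p = 0.00269). In both genes GFP-HRAS replicate 1 was the library nearest to RFP. The ketone-using enzymes split by paralogue: oxct1b fell from 3.62 ± 2.08 to 0.103 ± 0.108 CPM and oxct1a rose from 0.239 ± 0.0494 to 1.95 ± 0.70 CPM. Glutamine synthetase GLUL (ENSDARG00000099776) fell from 196, 520 and 369 CPM to 22.3, 8.72 and 12.3 CPM (-4.65 ± 1.08, adjusted p = 0.00516).

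For lipid and glycogen storage 12 of 33 genes fell and 2 rose, with a median of -0.46 that became 0.01 with library totals, where 7 fell and 4 rose. On the TMM scale the shares were 36.4% lower and 6.06% higher, beside 22.6% and 24.9% of all genes. The number that rose was 1 without RFP replicate 1 or 3 or GFP-HRAS replicate 3. Lipoprotein lipase, LPL (ENSDARG00000087697), which frees fatty acids for uptake, fell from 1539, 2838 and 1955 CPM to 250, 22.6 and 25 CPM (-4.41 ± 1.02, adjusted p = 0.00515). The glycolytic enzyme GAPDH fell from 12274, 8509 and 9639 CPM to 4275, 3747 and 2658 CPM (-1.51 ± 0.362, adjusted p = 0.00603). Cardiomyocyte markers moved with these groups: on the TMM scale 6 of 7 fell and 0 rose, and their summed CPM is given above. With library totals the markers cmlc1 and MYL7 did not pass edgeR's test (adjusted p = 0.0889 and 0.0952). The part of the cardiomyocyte markers in the falls was not tested.

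Genes of translation fell more often than they rose, 17 of 36 against 5 (median -0.65). The shares were 47.2% lower and 13.9% higher, beside 22.6% and 24.9% of all genes. The number that rose was 2 without RFP replicate 3 and 3 without RFP replicate 1 or GFP-HRAS replicate 2. The elongation factor eef1a1l1 fell from 12003, 15336 and 14477 CPM to 8148, 6850 and 6805 CPM (-0.94 ± 0.172, adjusted p = 0.00158), and the initiation factor subunits EIF3G and EIF3D had log2 fold changes of -1.89 ± 0.318 and -1.52 ± 0.26 (adjusted p = 0.00102 and 0.0011). EIF5A2, a hypusine-carrying elongation factor, rose instead, from 210, 195 and 178 CPM to 431, 587 and 812 CPM (1.65 ± 0.309, adjusted p = 0.00175). Of 19 amino-acyl tRNA synthetases 6 rose and 2 fell (median 0.40). Their shares were 31.6% and 10.5%, beside 24.9% and 22.6% of all genes. CARS1 rose from 15.2 ± 3.38 to 52.1 ± 13.9 CPM and KARS1 fell from 805 ± 137 to 352 ± 69.6 CPM (-1.19 ± 0.223, adjusted p = 0.00173).

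More genes of secretion, collagen processing and the basement membrane rose than fell. The shares that rose were 37.5% of the secretory and 52.4% of the basement membrane list, beside 24.9% of all genes. In the secretory list 15 of 40 genes rose, 4 fell and 21 were not called (median 0.31; 9 rose in the 1.5-fold test), and in the list of basement membrane and matricellular proteins 22 of 42 rose and 4 fell (median 1.67). The coat subunit SEC24A, which carries cargo out of the endoplasmic reticulum, fell from 353 ± 61.5 to 168 ± 7.88 CPM (-1.07 ± 0.208, adjusted p = 0.0021), and the translocon subunit SEC61A1 had 432 ± 110 and 280 ± 10.9 CPM and did not pass (-0.62 ± 0.257, adjusted p = 0.0652). LOX, which crosslinks collagen, rose from 2.54, 0.608 and 0.877 CPM to 8.52, 35 and 34.2 CPM (log2 fold change 4.28 ± 1.0, adjusted p = 0.00531), with GFP-HRAS replicate 1 far below the other two. LOXL2, of the same family, rose from 5.95 ± 0.671 to 54.5 ± 40.8 CPM, and PLOD2, a collagen lysyl hydroxylase, from 18.1 ± 5.32 to 108 ± 52.2 CPM. LOXL1, whose product crosslinks elastin, went the other way, from 334, 268 and 200 CPM to 33.0, 30.3 and 38.0 CPM (-2.99 ± 0.439, adjusted p = 0.000572). Laminin LAMB2 rose from 293, 230 and 260 CPM to 439, 539 and 551 CPM (0.97 ± 0.226, adjusted p = 0.00541). The matricellular SPARC rose from 24.3, 17.8 and 20.6 CPM to 129, 257 and 236 CPM (3.31 ± 0.444, adjusted p = 0.000398), and tenascin TNC fell from 6.96, 5.84 and 5.37 CPM to 1.0, 0.778 and 1.04 CPM (-2.68 ± 0.648, adjusted p = 0.00632). Fibroblast markers were higher beside these genes, with 5 of 7 up, 1 down (PDGFRA) and sums of 548 to 1157 CPM in RFP and 1577 to 2969 CPM in GFP-HRAS. Fibronectin FN1 ENSDARG00000006526, which made up most of the RFP sum, did not pass (822 CPM in RFP and 1103 CPM in GFP-HRAS, 0.42, adjusted p = 0.342). The part of the fibroblast markers in the rise was not tested.

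More integrin and actin cytoskeleton genes rose than fell. The shares that rose were 38.2% and 68.2%, beside 24.9% of all genes. Of 34 integrin and adhesion genes 13 rose and 3 fell (median 0.68), and of 44 actin cytoskeleton genes 30 rose and 2 fell (median 1.84; 1 fell without RFP replicate 2). The laminin receptor ITGA6 rose from 1.95, 2.49 and 3.01 CPM to 28.1, 64.2 and 57.9 CPM (4.33 ± 0.752, adjusted p = 0.00122), and the fibronectin receptor ITGA5 from 124, 89.2 and 102 CPM to 219, 427 and 356 CPM (1.67 ± 0.4, adjusted p = 0.00611). Talin TLN1, which ties integrins to actin, rose from 310 ± 34.6 to 632 ± 135 CPM (1.03 ± 0.25, adjusted p = 0.0065). The platelet integrin itga2b fell, from 20.1 ± 1.23 to 6.36 ± 1.8 CPM (-1.66 ± 0.308, adjusted p = 0.00168), and all 3 thrombocyte markers, itga2b among them, were lower.

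The actin-binding gene TAGLN (ENSDARG00000045408) showed one of the widest gaps, from 6.83, 3.53 and 5.43 CPM to 608, 2361 and 1704 CPM (8.21 ± 1.18, adjusted p = 0.000514). Annexin ANXA2, a membrane and actin linker, rose from 260, 88.1 and 123 CPM to 1090, 1696 and 1867 CPM (3.30 ± 0.515, adjusted p = 0.000747). The actin-severing cofilin CFL1 rose from 418 ± 84.3 to 2223 ± 332 CPM and the monomer-binding thymosin tmsb4x from 837 ± 176 to 2704 ± 361 CPM. Vimentin VIM (ENSDARG00000010008), an intermediate filament, fell from 47.3, 64.1 and 54.4 CPM to 12.5, 17.9 and 11.0 CPM (-2.0 ± 0.341, adjusted p = 0.0011). A cytoplasmic actin, actb2, reached an adjusted p of 0.0417 (0.52 ± 0.189) that was lost without any 1 of the 6 libraries, at up to 0.137. Smooth muscle and pericyte markers stood at 136 to 191 CPM in RFP and 1079 to 2922 CPM in GFP-HRAS. Of these markers 6 of 7 were higher, beside 24.9% of all genes. TAGLN ENSDARG00000045408 was among them and made up most of the GFP-HRAS sum. The marker acta2 did not pass (85.1 CPM in RFP and 131 CPM in GFP-HRAS, 0.63, adjusted p = 0.245). The part of these markers in the rise of the actin group was not tested.

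**Figure D4:**
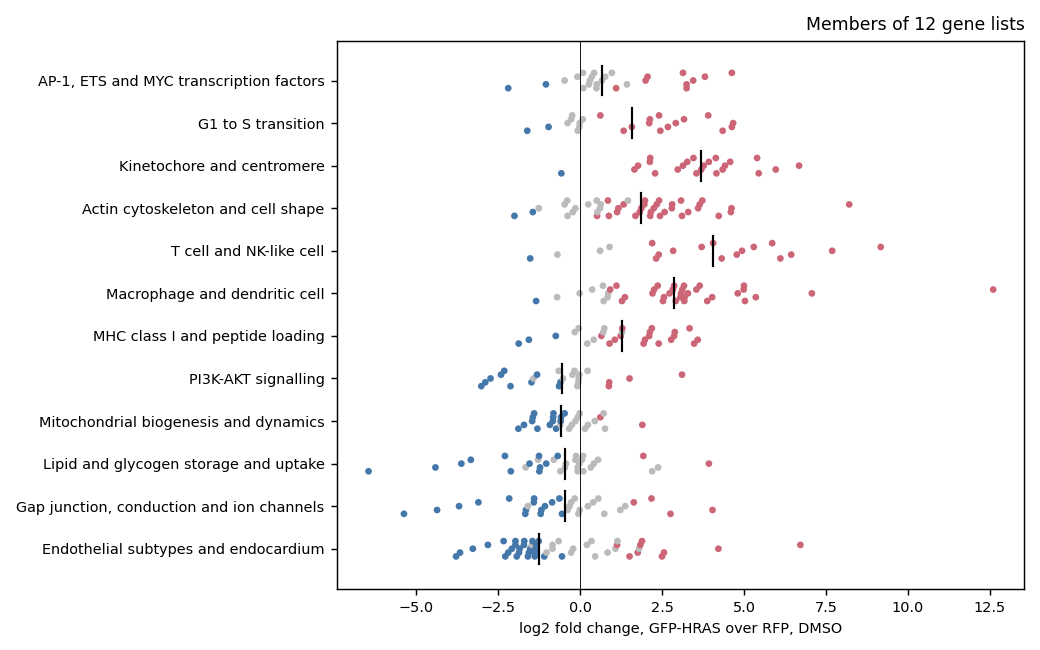
Log2 fold change (GFP-HRAS minus RFP, both DMSO) of every tested member of 12 gene lists, 1 point per gene, coloured where called and grey where not, with a vertical bar at the median of each list. Kinetochore members lie to the right (median 3.70), and PI3-kinase (median -0.56, and -0.10 with library totals, where more rose than fell) and endothelial members (median -1.26) mostly to the left.

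The sarcomere's anchoring proteins split. Of 36 Z-disc and costamere genes 6 rose and 9 fell, with a median of -0.02 that became 0.44 with library totals, where 14 rose and 9 fell. Their shares were 16.7% and 25.0%, beside 24.9% and 22.6% of all genes. The number that rose was 3 without RFP or GFP-HRAS replicate 2. The stretch-sensing LIM protein CSRP3 rose from 133, 74.7 and 97.5 CPM to 472, 555 and 480 CPM (2.31 ± 0.418, adjusted p = 0.00148). SYNPO2L, a Z-disc protein, fell from 2228, 2416 and 2816 CPM to 1453, 1172 and 1155 CPM (-0.98 ± 0.231, adjusted p = 0.00552), and the actin nucleator LMOD2 fell by 1.98. The small heat shock protein HSPB7 missed the threshold (1320 ± 88.6 and 1165 ± 53.6 CPM, -0.18 ± 0.193, adjusted p = 0.461).

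Channels and pumps fell more often than they rose, 15 of 32 against 4. Their shares were 46.9% lower and 12.5% higher, beside 22.6% and 24.9% of all genes. Their median was -0.46, and 0.01 with library totals, where 11 fell and 6 rose. ABCC9, the regulatory subunit of the cardiac potassium channel that ATP closes, fell from 531, 1126 and 759 CPM to 139, 78.8 and 64.0 CPM (-3.10 ± 0.55, adjusted p = 0.00134). The calcium pump of the sarcoplasmic reticulum, atp2a2a, fell from 4891, 6900 and 5856 CPM to 2570, 1973 and 2095 CPM (-1.41 ± 0.188, adjusted p = 0.000394), and pln1, its inhibitor phospholamban, from 8224, 10365 and 9767 CPM to 2418, 960 and 714 CPM (-2.79 ± 0.486, adjusted p = 0.00123). RFP replicate 2 was the highest library for ABCC9, atp2a2a and pln1, and each of these genes passed without it. Cardiomyocyte markers fell beside these genes and the cardiac transcription factors that follow, 6 of 7 lower on the TMM scale. Their sums were 38151 to 41852 CPM in RFP and 18093 to 23724 CPM in GFP-HRAS. Their part in these falls was not tested.

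Of 25 cardiac transcription factors 10 fell and 3 rose, with a median of -0.36 (0.10 with library totals, where 7 fell and 6 rose). On the TMM scale 40.0% were lower and 12.0% higher, beside 22.6% and 24.9% of all genes. GATA5 fell from 496, 454 and 457 CPM to 151, 141 and 169 CPM (-1.61 ± 0.228, adjusted p = 0.000489), and gata4, its partner in heart development, by 2.14 on the log2 scale. TBX5 had 567 ± 61.4 and 266 ± 38.9 CPM and passed (-1.1 ± 0.328, adjusted p = 0.0176), but not with library totals (0.102) or without RFP replicate 2 or GFP-HRAS replicate 2 or 3 (up to 0.061). SALL1 ENSDARG00000075891 was nearly absent from RFP, at 0, 0.0608 and 0 CPM, and present at 8.92, 9.99 and 11.1 CPM in GFP-HRAS, a ratio of 503.8 (counting interval 90.13 to 19930). MYH6 ENSDARG00000079564, a cardiac myosin heavy chain, had the largest gain in CPM of any called gene, from 485, 271 and 417 CPM to 3530, 6573 and 4284 CPM (3.62 ± 0.395, adjusted p = 0.000208). The gene with the symbol myh6, ENSDARG00000090637, had 239 CPM in RFP and 313 CPM in GFP-HRAS and did not pass (0.39, adjusted p = 0.57). Of 3 atrial cardiomyocyte markers tested, this myh6 among them, 0 were called in either direction. MYH7 ENSDARG00000079782 measured 30180, 24376 and 29346 CPM in RFP and 18113, 15764 and 10993 CPM in GFP-HRAS (-0.90 ± 0.255, adjusted p = 0.0135). It did not pass with library totals (0.0859) or without GFP-HRAS replicate 3 (0.0604). The skeletal-type actin ACTA1 (ENSDARG00000036371) rose from 33.4, 101 and 45.3 CPM to 625, 1537 and 1209 CPM (4.23 ± 1.08, adjusted p = 0.00837), while the marker sums of skeletal muscle were 5.04 to 20.9 CPM in RFP and 27.9 to 29.0 CPM in GFP-HRAS.

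Of 33 hypoxia and angiogenic genes 8 rose and 11 fell (median -0.34, and 0.15 with library totals, where 10 rose and 9 fell). Their shares were 24.2% and 33.3%, beside 24.9% and 22.6% of all genes. The number that rose was 4 without RFP replicate 3 and 5 without GFP-HRAS replicate 3. The oxygen sensor EGLN3 rose from 5.27, 1.64 and 3.07 CPM to 15.9, 40.4 and 41.5 CPM (3.30 ± 0.751, adjusted p = 0.00473). The HIF alpha-like gene hif1al fell from 246, 561 and 305 CPM to 88.3, 61.4 and 57.9 CPM (-2.42 ± 0.63, adjusted p = 0.00915). BNIP3, a mitophagy receptor, fell from 48.7, 95.9 and 94.2 CPM to 18.2, 2.7 and 3.30 CPM (-3.31 ± 0.867, adjusted p = 0.00942). Endothelin edn1 fell from 17.8, 71.5 and 16.8 CPM to 1.09, 1.84 and 1.31 CPM (-4.63 ± 0.774, adjusted p = 0.000999).

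Of 21 Hippo pathway genes 2 rose and 6 fell (median -0.20, and 0.27 with library totals, where 7 rose and 4 fell). Their shares were 9.52% and 28.6%, beside 24.9% and 22.6% of all genes. The number that rose was 1 without RFP replicate 3 or GFP-HRAS replicate 2. AMOTL2, an angiomotin that holds YAP in the cytoplasm, fell from 290, 449 and 359 CPM to 71.2, 104 and 91.1 CPM (-2.04 ± 0.268, adjusted p = 0.000384). CCN1, a target of YAP, had 32.6, 162 and 28.3 CPM against 200, 316 and 257 CPM and did not pass (1.79 ± 0.931, adjusted p = 0.133), RFP replicate 2 being far above the rest of its group. Of 21 genes in the Notch list 9 fell and 2 rose (median -0.08, and 0.38 with library totals, where 7 fell and 5 rose). Their shares were 42.9% lower and 9.52% higher, beside 22.6% and 24.9% of all genes. The number that rose was 1 without any library other than GFP-HRAS replicate 1. Among those that fell was DLD ENSDARG00000008785 (324 ± 35.3 and 183 ± 40.3 CPM). It entered by its symbol, which in human style names a mitochondrial enzyme and not a Notch ligand. The receptor NOTCH1 (ENSDARG00000052094) fell from 665, 573 and 525 CPM to 193, 211 and 243 CPM (-1.45 ± 0.176, adjusted p = 0.000313), the ligand dlc by 3.53, and the Fringe glycosyltransferase mfng rose from 4.30 ± 0.815 to 18.3 ± 4.89 CPM.

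More endothelial genes fell than rose. Of 49 genes 26 fell and 9 rose (5 without RFP replicate 3), and the median was -1.26, or -0.80 with library totals. Their shares were 53.1% lower and 18.4% higher, beside 22.6% and 24.9% of all genes. Von Willebrand factor, vwf, fell from 537, 562 and 616 CPM to 118, 91.9 and 165 CPM (log2 fold change -2.19 ± 0.269, adjusted p = 0.000321), and NFATC1, an endocardial transcription factor, from 107, 74.6 and 114 CPM to 26.1, 24.6 and 32.1 CPM (-1.84 ± 0.228, adjusted p = 0.000333). BMP10 ENSDARG00000061769, a ligand of heart muscle that acts on endothelium, fell from 145, 181 and 164 CPM to 20.2, 7.82 and 10.9 CPM (-3.66 ± 0.415, adjusted p = 0.000251), and its paralogue BMP10 ENSDARG00000109233 from 154, 77.7 and 138 CPM to 28.9, 5.24 and 4.22 CPM. MRC1, a scavenger receptor of sinusoidal and lymphatic endothelium and of macrophages, rose from 0.585, 0.426 and 0.493 CPM to 57.0, 58.3 and 44.6 CPM (6.72 ± 0.608, adjusted p = 0.000101). The 5 endothelial markers summed to 1380 to 1589 CPM in RFP and 429 to 462 CPM in GFP-HRAS, and all 5 fell. In these bulk libraries fewer cells of a type and less RNA per cell cannot be told apart.

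Of 29 epicardial and retinoic acid genes 11 fell and 6 rose, with a median of -0.28 (0.18 with library totals, where 8 fell and 11 rose). On the TMM scale 37.9% were lower and 20.7% higher, beside 22.6% and 24.9% of all genes. The retinol carrier RBP4 fell from 384, 559 and 350 CPM to 61.2, 53.3 and 47.9 CPM (-2.99 ± 0.403, adjusted p = 0.000406), and the keratin krt94 from 2231, 1959 and 2541 CPM to 686, 462 and 303 CPM (-2.21 ± 0.307, adjusted p = 0.000454). ALDH1A2, which makes retinoic acid, rose from 1.54 ± 0.416 to 4.64 ± 1.79 CPM (1.59 ± 0.37, adjusted p = 0.00515), while CRABP2 (ENSDARG00000073978), a carrier of retinoic acid, rose from 0.325, 0 and 0 CPM to 11.8, 34.1 and 26.0 CPM (7.80 ± 1.28, adjusted p = 0.000931). CYP26B1, which degrades retinoic acid, was erratic: RFP libraries held 381, 4.26 and 350 CPM and GFP-HRAS libraries 7.97, 15.2 and 37.0 CPM. Its adjusted p of 0.0245 rose to as much as 0.0804 when 1 library was left out. The epicardial markers TCF21 and TBX18 did not pass, and the marker sums overlapped, at 30.8 to 49.6 CPM and 46.9 to 73.7 CPM.

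Genes of macrophages and dendritic cells rose widely, 31 of 39 with 1 lower and a median of 2.87. Their shares were 79.5% higher and 2.56% lower, beside 24.9% and 22.6% of all genes. The receptor csf1ra, on which macrophages depend, rose from 20, 12.5 and 9.54 CPM to 125, 176 and 191 CPM (3.55 ± 0.493, adjusted p = 0.000452). Its ligand il34, which tissue cells make, rose from 8.39, 7.11 and 7.40 CPM to 62.6, 46.1 and 41.0 CPM (2.71 ± 0.218, adjusted p = 6.89e-05). IRF8, a transcription factor of the lineage, rose from 5.42 ± 2.24 to 47.2 ± 10.8 CPM and the class II invariant chain cd74a from 132, 42.6 and 83.6 CPM to 3594, 2523 and 2303 CPM (5.03 ± 0.527, adjusted p = 0.000164). In the list 7 members were not called. The perforin-like macrophage marker MPEG1 did not pass: the MPEG1 gene with the most counts had a log2 fold change of -0.70 (adjusted p = 0.49). Another of the 3 MPEG1 genes had no counts. The macrophage marker lgals9l1 did not pass either (9.48 CPM in RFP and 11.3 CPM in GFP-HRAS, 0.26, adjusted p = 0.708). Macrophage markers summed to 142, 34.6 and 34.7 CPM in RFP, replicate 1 the highest, and to 237, 272 and 278 CPM in GFP-HRAS.

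More complement and antigen presentation genes rose than fell. Of 12 complement genes 8 rose and 0 fell (median 2.17), led by the anaphylatoxin receptor C3AR1 (0.455, 0.365 and 0.0548 CPM to 4.96, 18.9 and 26.8 CPM; 5.86 ± 1.05, adjusted p = 0.00139). Their shares were 66.7% higher and 0% lower, beside 24.9% and 22.6% of all genes, and 12 of 29 matched genes were tested. The complement receptor chain itgb2, an integrin of all leukocytes, rose from 45.3, 27.6 and 30.0 CPM to 324, 151 and 142 CPM (2.58 ± 0.331, adjusted p = 0.000355). The complement gene c7a overlapped between groups and did not pass (123 ± 50.8 and 168 ± 46.6 CPM, 0.45 ± 0.358, adjusted p = 0.318). In the MHC class I list 17 of 27 rose (63.0%) and 3 fell (11.1%), with a median of 1.28. The peptide transporter tap2a rose from 6.05, 2.74 and 2.08 CPM to 55.0, 32.3 and 22.5 CPM (3.34 ± 0.446, adjusted p = 0.000397), the immunoproteasome subunit PSMB9 from 2.12 ± 1.22 to 25.5 ± 10.2 CPM, and mhc1uba from 450, 359 and 387 CPM to 1465, 684 and 786 CPM (1.29 ± 0.298, adjusted p = 0.00496). Another class I gene, mhc1zaa, fell from 48.8, 51.7 and 40.4 CPM to 10.9, 9.21 and 18.3 CPM (-1.87 ± 0.328, adjusted p = 0.00125). Replicate 1 was the highest GFP-HRAS library for itgb2, tap2a, PSMB9 and mhc1uba.

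Several lymphocyte genes were near zero in RFP and uneven among GFP-HRAS libraries. Of 19 T and NK-like cell genes 15 rose and 1 fell (median 4.06), and of 12 B cell genes 8 rose and 2 fell (median 2.56). Their shares were 78.9% higher and 5.26% lower, and 66.7% and 16.7%, beside 24.9% and 22.6% of all genes. The filter left 19 of 39 matched T and NK-like genes and 12 of 24 matched B cell genes. Genes near 0 in RFP could pass it through GFP-HRAS alone and be called only as higher, so these counts and medians favour rises. The cytotoxic transcription factor EOMES measured 0.52, 0.182 and 0.329 CPM in RFP and 45.8, 11.1 and 3.70 CPM in GFP-HRAS (5.86 ± 1.23, adjusted p = 0.00316), and the granulysin-like nkl.2 0.065, 0.0608 and 0.110 CPM against 39.8, 8.64 and 5.22 CPM (7.69 ± 1.8, adjusted p = 0.00539). The regulatory T cell factor foxp3a rose from 0.234 ± 0.304 to 9.15 ± 4.14 CPM (5.30 ± 0.74, adjusted p = 0.000464). SYK, a kinase of B cell and myeloid receptors, rose from 7.74, 4.80 and 4.11 CPM to 92.0, 50.7 and 45.6 CPM (3.50 ± 0.356, adjusted p = 0.00015). GATA3, a T cell factor that other tissues also express, fell from 34.4, 36.4 and 38.6 CPM to 17.8, 9.66 and 10.5 CPM (-1.52 ± 0.271, adjusted p = 0.00135). T cell marker sums ran from 0.110 to 0.650 CPM in RFP to 10.1 to 35.4 CPM in GFP-HRAS. Of 4 T cell markers 1 was tested, ZAP70, which held most of the GFP-HRAS sum (21.6 CPM). The others, cd4-1, cd8a and lck, had 0.615, 0.494 and 0.0439 CPM there, under the filter. NK-like marker sums ran from 0.383 to 0.425 CPM in RFP to 438, 113 and 65.9 CPM in GFP-HRAS, replicate 1 the highest. Without GFP-HRAS replicate 1 EOMES, nkl.2, foxp3a, SYK and GATA3 still passed.

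Neutrophil genes and inflammatory cytokines rose less uniformly. Of 19 granulocyte genes 8 rose and 4 fell (median 0.70; 2 fell without RFP replicate 1), and lyz, a defining marker, had no counts in any of the 6 libraries. The neutrophil chemokine cxcl8b.1 rose from 1.37, 0.486 and 0.329 CPM to 9.47, 8.6 and 11.8 CPM (3.79 ± 0.611, adjusted p = 0.000858). Of 42 genes of TNF, interleukin-1 and NF-kB signalling 16 rose and 3 fell (median 0.60). Their shares were 38.1% and 7.14%, and those of granulocyte genes 42.1% and 21.1%, beside 24.9% and 22.6% of all genes. The T cell ligand cd40lg rose from 0.159 ± 0.0266 to 3.98 ± 1.99 CPM, lifra, a receptor of the interleukin-6 family, fell from 25.4, 35 and 17.9 CPM to 5.24, 3.81 and 4.34 CPM (-2.55 ± 0.478, adjusted p = 0.00175), and SOCS3, a brake on that family, overlapped (338 ± 194 and 225 ± 97.8 CPM).

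Iron, oxidant, clotting and stress genes were mixed. Of 38 oxidative stress and iron genes 8 rose and 8 fell (median 0.14). These shares, 21.1% each, lay near those of all genes (24.9% higher and 22.6% lower). The number that fell was 4 without GFP-HRAS replicate 2 or 3, and with library totals 15 rose and 4 fell. The transferrin receptor tfr1a rose from 6.70, 6.20 and 6.52 CPM to 25, 76.8 and 64.2 CPM (3.09 ± 0.41, adjusted p = 0.000392) and tfr1b from 3.21 ± 1.36 to 30.0 ± 7.05 CPM, and the peroxidase prdx1 from 1.02 ± 0.0948 to 19.7 ± 6.73 CPM (4.26 ± 0.511, adjusted p = 0.000296). Erythrocyte marker sums were lower at the same time, 20.5 to 32.5 CPM against 54.1 to 105 CPM. The metalloreductase STEAP4 fell (-2.68 ± 0.654, adjusted p = 0.00663), from 320 CPM in RFP replicate 1 and 42.4 and 60.6 CPM in the other two to 24.6, 26.9 and 14.5 CPM.

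Of 19 coagulation and plasma protein genes 8 rose and 6 fell (median 1.93). Their shares were 42.1% and 31.6%, beside 24.9% and 22.6% of all genes. The coagulation factor gene f8 fell from 6163, 5885 and 6361 CPM to 2326, 1255 and 1505 CPM (-1.86 ± 0.292, adjusted p = 0.000772). The urokinase gene plaua, whose product activates plasmin, rose from 0.260, 0.486 and 0.0548 CPM to 30.8, 30.3 and 15.2 CPM (6.56 ± 0.795, adjusted p = 0.000313). Of 42 genes of the p53 response, senescence and apoptosis 15 rose and 7 fell (median 0.21), and 19 and 2 with library totals. On the TMM scale 35.7% were higher and 16.7% lower, beside 24.9% and 22.6% of all genes. The survival protein BIRC5, which also acts in mitosis, rose from 0.195, 0.122 and 0.219 CPM to 3.60, 7.29 and 6.85 CPM (4.99 ± 0.708, adjusted p = 0.000489). The cell cycle inhibitor locus cdkn2a/b had 1 count in each RFP library and a ratio of 14.69 (counting interval 4.804 to 73.16). Of 11 glial and neural genes 6 rose and 0 fell (median 1.45), among them the myelin gene mbpb (5.74 ± 1.66 to 18.8 ± 2.90 CPM; 1.71 ± 0.264, adjusted p = 0.000711), while the 4 Schwann cell markers summed to 0.790 to 0.975 CPM in RFP and 0.364 to 2.86 CPM in GFP-HRAS. In the glial and neural list 54.5% were higher, beside 24.9% of all genes, and 11 of 32 matched genes were tested.

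Genes with the smallest p and separate groups added members of no list. The ectonucleotidase gene enpp1, whose product makes pyrophosphate, rose from 1.56, 2.25 and 1.59 CPM to 42.2, 45.8 and 47.6 CPM (4.65 ± 0.352, adjusted p = 6.89e-05), and the interferon-induced GTPase gbp2 from 4.03, 4.92 and 5.59 CPM to 40.4, 31.1 and 40.2 CPM (2.94 ± 0.235, adjusted p = 6.89e-05). The chemokine gene ccl39.5 rose from 0.0799 ± 0.0699 to 29.2 ± 8.49 CPM and the microtubule regulator STMN1 from 0.258 ± 0.0563 to 10.5 ± 1.49 CPM. On the lower side, the purinergic receptor P2RY13 fell from 43.0, 30.8 and 36.2 CPM to 3.37, 2.95 and 3.30 CPM (-3.51 ± 0.208, adjusted p = 2e-05) and the sulfotransferase sult2st1 from 52.1, 72.7 and 55.7 CPM to 2.0, 1.76 and 1.67 CPM (-5.05 ± 0.306, adjusted p = 2e-05). For P2RY13 and sult2st1 the GFP-HRAS replicates lay close together and far below RFP. The phospholipase PLA2G4A, which frees arachidonic acid, fell from 34.1 ± 3.77 to 2.65 ± 1.1 CPM. The receptor epha2b fell from 26.1 ± 1.57 to 5.24 ± 0.624 CPM, tmem88a, a Wnt antagonist needed for zebrafish heart development, from 92.6 ± 7.78 to 11.8 ± 3.31 CPM, and podxl, a sialomucin of endothelium and epithelia, from 1313 ± 143 to 343 ± 38.2 CPM.

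The same lines under rapamycin share no library with this comparison and gave smaller changes. There, 2909 genes (18.1%) were called, 1672 higher (10.4%) and 1237 lower (7.71%); 2488 of them were called under DMSO in the same direction, which is 32.6% of the DMSO calls and 85.5% of the rapamycin calls. Of the 7621 DMSO calls 7175 (94.1%) had the same sign under rapamycin, against 81.2% of all genes tested. Genes called higher under DMSO had a median log2 fold change of 1.87 there and 0.94 under rapamycin, and those called lower -1.29 and -0.69. They were chosen for passing under DMSO, which favours larger DMSO values. GFP-HRAS rapamycin replicate 3 stood apart from its group on the first principal component (-5.42, against 51.2 and 40.7). Without it the rapamycin medians were 1.13 and -0.89, the share of DMSO calls with a smaller size fell from 89.4% to 80.0%, and 4864 genes were called. Kinetochore genes had like medians in both pairs, 3.70 and 3.22, and T and NK-like genes unlike ones, 4.06 and 0.70 (1.05 without that library); the difference between these medians was not tested.

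The difference between the HRAS effects was itself tested and passed for 8 genes (0.0499%), each at an interaction adjusted p of 0.0485. Of these, 4 are known from leukocytes and rose under DMSO: the class II transactivator ciita (4.14 under DMSO and 0.58 under rapamycin), the Toll-like receptor chaperone UNC93B1 (2.49 and -0.22), the chemokine receptor CCR8 (4.49 and 0.84) and PIK3CD (3.11 and -0.08). For lonrf1, a gene with a RING finger and LON domain, the values were -1.90 and -0.02. ciita stood at 2.08, 1.64 and 0.987 CPM in RFP DMSO and 37.8, 23.9 and 21.2 CPM in GFP-HRAS DMSO. The count moved when single libraries were left out. Leaving out RFP DMSO replicate 2 or 3, RFP rapamycin replicate 2 or 3, or replicate 2 of either GFP-HRAS group brought it to 0, and leaving out RFP rapamycin replicate 1 to 1. It became 81 without RFP DMSO replicate 1, and with replicate 1 or 3 of GFP-HRAS DMSO left out it became 19 or 31. At its adjusted threshold DESeq2 called 519 genes. At an unadjusted p under 0.05, edgeR gave 2303 genes with all libraries and 1687 to 2989 with 1 left out.

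**Figure D5:**
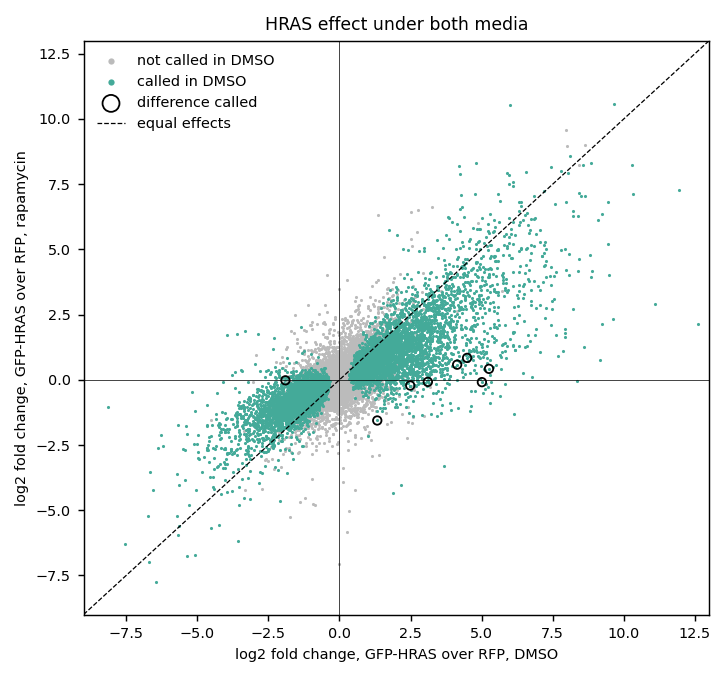
Log2 fold change of GFP-HRAS against RFP under rapamycin plotted against that under DMSO for the 16044 genes tested, with the dashed line at equal effects and circles around the 8 genes whose difference passed the test. Most genes called under DMSO lie on the same side of 0 on both axes (94.1%), nearer to 0 on the rapamycin axis.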

How the data were processed

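Sequencing libraries of mRNA were made from total RNA with the CORALL mRNA kit, whose fragments carry unique molecular identifiers, per the labels' protocols. HISAT2 2.1.0, UMI-tools 1.1.1, featureCounts 1.6.0 and genome build GRCz11 are named in the submitters' processing notes; annotation release and strand setting: not given in the sources used here. Whole-number counts per gene, not normalized, were deposited by the authors. Overlapping genes and near-identical paralogues may share reads.

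The 12 transgenic libraries, 3 in each of 4 groups, were fitted together in edgeR 4.0.16 (R 4.3.3; limma 3.58.1) with TMM factors, the default filter by group, glmQLFit and glmQLFTest, which left 16044 of 32520 genes; 3 libraries per group limit the precision. The label UR in column names was taken to mean UAS:RFP. P-values were adjusted by Benjamini-Hochberg over all genes and called under 0.05. Log2 fold changes use the default prior count, and SE is their size over the square root of F. The fit was tested on simulated data. Where RFP held 1 to 3 counts, a ratio with a 95% counting interval is given, which covers counting error only.

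Members and the 41 lists were chosen with earlier results of these data known. Listed symbols (1415) matched 480 times exactly, 516 by case and 319 by family; 94 had no match and 6 matched more than 3 genes. Rules named 183 genes: the hras genes, the 10 largest gains and losses in CPM, the 10 higher and 10 lower called genes with separate groups, at least 10 CPM and the smallest p, and, per list, the 2 members with the highest CPM and the largest rise and fall. From these, the text gives a part (some genes are not reported here); 57 further genes with their libraries, and other members given by their fold change, were named after their values were seen. Of the identifiers 29201 have a symbol, many in human style. No sequence was used. Alternatives were RLE factors, library totals, no filter, DESeq2 1.42.0, the 6 libraries alone, a replicate block, a 1.5-fold test and leaving out each library.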

Additional observations from a re-analysis of the deposited data

Results flagged for a closer look

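For 8 genes the HRAS effect under rapamycin differed from that under DMSO in a test of the difference itself, an interaction term in edgeR's quasi-likelihood fit, each at an adjusted p of 0.0485. The difference, rapamycin minus DMSO on the log2 scale, was -3.56 for ciita (4.14 under DMSO, 0.58 under rapamycin), -3.64 for CCR8 (4.49 and 0.84), -2.71 for UNC93B1 (2.49 and -0.22) and -3.19 for PIK3CD (3.11 and -0.08). It was -2.89 for si:ch211-79k12.1 (1.33 and -1.56), whose sign differed between the pairs with an adjusted p of 0.00344 and 0.00728 in them, and -5.10 for si:ch211-260p9.3 (5.01 and -0.09). ENSDARG00000010729, which has no symbol here, had -4.83 (5.26 and 0.42), with 3.71, 3.95 and 2.36 CPM in RFP DMSO and 155, 52.7 and 175 CPM in GFP-HRAS DMSO. For lonrf1 the difference was 1.88 (-1.90 and -0.02). With RFP DMSO at 14.1, 20 and 10.5 CPM and GFP-HRAS DMSO at 47.4, 26.4 and 38.8 CPM, the groups of si:ch211-79k12.1 did not overlap.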

How the results depend on the processing

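The DMSO comparison called 7491 to 8210 genes with RLE size factors (7617), no filter, DESeq2 or the 6 DMSO libraries alone (7958), and 5793 to 7312 with 1 library left out. A test against a 1.5-fold change called 4636 (2660 higher, 1976 lower). Library totals gave 6084 higher and 1812 lower, as the median of all genes moved with that scaling. Under rapamycin the counts were 908 with the 1.5-fold test, 4190 with DESeq2 and 881 to 4864 with 1 library left out. The difference between the effects was called for 125 genes with library totals, 26 with no filter, 519 with DESeq2, 44 with the replicate block, 0 in edgeR's 1.5-fold test (1272 at an unadjusted p under 0.05) and 0 to 81 with 1 library left out; the cause was not tested.

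Replicate numbers did not pair the libraries: deviations of same-numbered DMSO libraries correlated at -0.0138, -0.0136 and -0.0383, and 0 GFP-HRAS libraries correlated best with their own number. With the replicate block 7049 genes were called under DMSO (3725 higher, 3324 lower) and 1941 under rapamycin.

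Of 240 genes examined singly 210 were called, and 173 of these kept their call and direction in every alternative other than the 1.5-fold test. Calls were lost for 21 with library totals, 9 with the block, 1 with RLE and 9 to 26 with 1 library left out; none of the 210 changed sign. Signs changed only for genes that were not called and lay near 0. With library totals these were CCND1 (0.45), TIMELESS (0.46), SYT1 (0.39), MAT2A (0.38), VEGFA and IMPDH2 (0.29), HSPB7 (0.28), NARS1 (0.27), fth1a (0.24) and eef2b (0.06). CCND1 and SYT1 were at 0.01 and TIMELESS at 0.03 with RLE and DESeq2. The 6 libraries alone gave CCND1 0.01 and TIMELESS 0.03, the block TIMELESS 0.00 and no filter TXNIP -0.01. With 1 library left out, values ran from -0.26 to 0.51 for JUN, -0.16 to 0.12 for CCND1, -0.06 to 0.06 for TIMELESS, -0.19 to 0.38 for AHCY, -0.19 to 0.02 for MAT2A, -0.14 to 0.15 for il6st, -0.24 to 0.28 for TXNIP and -1.09 to 0.40 for SYT1. At these depths genes under about 1 CPM in both groups carry few counts, and their changes are the least certain.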
